A study of Mus musculus with 6 samples.

Results

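The ion channel genes described here are 118 of the 16312 genes in a count table of haematopoietic stem cells (HSCs) from young and old mice. They were chosen by gene symbol, from potassium (Kcn), calcium (Cacn), sodium (Scn) and TRP channels (Trpc, Trpm, Trpv), P2X receptors, Piezo channels, chloride channels (Clcn, Clic) and anoctamins (Ano), with at least 15 counts summed over the 6 libraries. Of 125 rows with such a symbol, 7 fell under that minimum. Just inside it were genes with 15 counts, among them Kcnh8 and Kcnt1, and just outside was Kcnk2 with 14. Kcnb2 led the choice of these genes because its difference with age was already known, so its values are given as a description without a test. The other members were taken by symbol and total count, neither of which compares the ages.

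Marrow of male B6 mice was the source of the HSCs, which were isolated by flow sorting. The markers of the sort are not analysed here, and the series title names the strain as C57BL/6N. The young group held 3 controls aged 8 to 12 weeks, and the old group 3 controls aged 22 months. Both are control groups from work on parabiosis, the surgical joining of animals, and no transgene, deletion or drug is named for either. Total counts per library ran from 12494557 to 30931680, so old replicate 2, the shallowest, has the largest counting error. Levels are in CPM, counts scaled to a common library total, and fold changes are old over young with their standard errors (SE). A gene is called when its adjusted p is below 0.05 in edgeR's quasi-likelihood test, adjusted over all 14288 genes tested.

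Ion channels are pores that let ions cross a membrane down their gradients. Potassium channels mostly hold the membrane potential negative, and that potential in turn drives calcium into the cell. Blood stem cells fire no action potentials, and their channels are known instead for setting resting potential, calcium entry, cell volume, and the acidity of endosomes. Many channels are built from several subunits, so a gene can encode the pore, an accessory protein, or a subunit that works only with others.

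The sorted cells carried the transcripts of HSCs, and all 13 listed HSC markers were tested. Of these Procr and Slamf1 rose, and the summed level of the list was 4200 to 4866 CPM in young and 4518 to 4937 CPM in old libraries. Markers of some other cell types moved with age, and their part in the channel results was not tested. Of 15 tested macrophage markers 9 fell, with sums of 103 to 137 CPM in young and 44.6 to 51.3 CPM in old libraries, and Adgre1, C1qb, Cd5l, Fcna and Timd4 had no count in any old library. Of 4 tested neutrophil markers 3 fell, with sums of 10.3 to 200.2 CPM in young libraries, highest in young replicate 1, and 3.88 to 6.79 CPM in old ones. Of 10 tested erythroid markers 3 fell (832 to 1246 CPM in young and 769 to 935 CPM in old libraries). Over the 6 libraries most of the erythroid sum was Car2, at a mean of 780 CPM. Of 8 tested endothelial markers 4 rose, from sums of 152 to 248 CPM to 390 to 501 CPM, and of 5 T and NK cell markers only Klrb1c rose. Nothing was called among 10 megakaryocyte, 3 B cell or 2 mast cell and basophil markers. Over all tested genes, 1.54% were called lower and 2.45% higher. Adgre1, C1qb, C1qc, Cd5l, Fcna and Hba-a2 reached the level of the low-count filter, 0.437 CPM, in no old library. Ngp and Lcn2 reached it in 1 old library. These genes were tested because of their young values, so a fall was the only change the test could show for them. In sorted bulk RNA, fewer cells of a type and less RNA per cell cannot be told apart. The label of young replicate 2 carries different library numbers in its title and description, and results without this library are given beside those they change.

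Old HSCs held more transcripts of a few scattered channel subunits, and the share of channel genes called was near that of all genes. The filter on low counts left 82 of the 118 members for testing. Of these 4 were higher in old mice and none was lower by edgeR (DESeq2 gave 1 lower and the edgeR exact test 2), against 3.99% of all tested genes called, 2.45% higher and 1.54% lower. Kcnb2, which the choice of members rests on, is 1 of the 4. Besides it 3 of 81 tested members passed, or 3.70%, which is near the background. The 4 genes were the potassium channel subunits Kcnb2 and Kcnk10, the cation channel subunit Trpc1, and the calcium-binding accessory protein Kcnip3. The median log2 fold change was −0.08 over the tested members and −0.02 over all tested genes, and 35 members (42.7%) had a positive value, next to 48.2% of all tested genes. An unadjusted p under 0.05 was found for 19 members (23.2%), next to 16.5% of all tested genes. Old and young libraries did not overlap for 18 tested members (10 above and 8 below), or 22.0%, next to 22.3% of all tested genes (11.6% above and 10.7% below). A log2 fold change of 1 or more in size was found for 16 tested members (19.5%), a larger share than the 9.48% of all tested genes. Tested members include genes that passed the filter through 1 group alone, so these counts describe the tested members and not all 118.

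**Figure D1:**
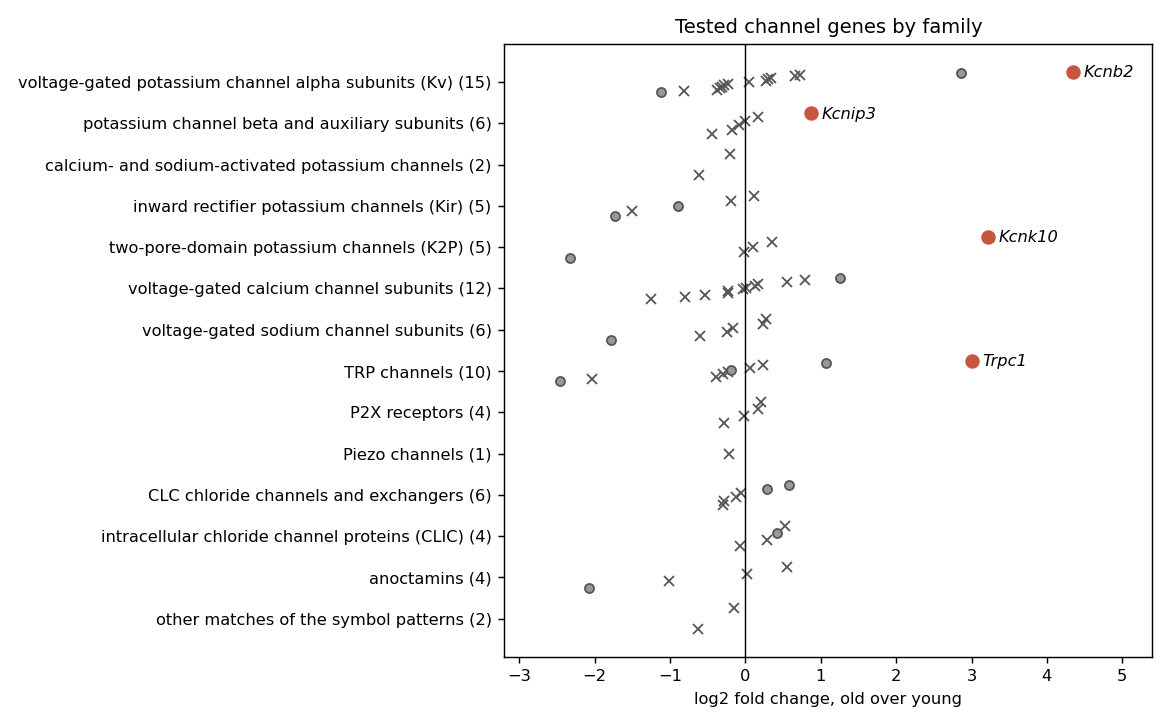
Log2 fold change, old over young, of the 82 tested channel genes, with the number tested per family in parentheses. Large red points passed the adjusted p threshold (Kcnip3, Kcnk10, Trpc1, and Kcnb2, whose value led the choice of members). Grey points are members whose young and old libraries did not overlap, and crosses are members whose libraries overlapped. Each of the 4 called genes has the highest value among the tested members of its own family.

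The summed level of all channel genes overlapped between the ages, at 1538, 1620 and 1725 CPM in young replicates 1 to 3 and 1709, 1685 and 1799.9 CPM in the old ones. Levels among members were very unequal, since 26 lay at 10 CPM or more, 45 between 1 and 10 CPM and 47 below 1 CPM. The 6 most abundant, Trpm7, Clic1, Trpc6, Clic4, Ano6 and Clcn3, made up 51.1% of the summed CPM of the members. Of the 26 members at 10 CPM or more 3 were called, or 11.5% next to 4.97% of all genes at that level. This share counts Kcnb2, whose value led the choice of members. Without it, Trpc1 and Kcnip3 were called among 25. The bands use the mean over the 6 libraries, and Kcnb2 and Trpc1 reached 10 CPM through their old values. Their young means were 1.18 and 2.69 CPM and their old means 24.5 and 21.6 CPM. Between 1 and 10 CPM 1 of 44 tested members was called (2.27%), next to 2.35% of all genes. Below 1 CPM none of 12 was called, next to 1.46%. The median size of the log2 fold change of members at 10 CPM or more was 0.21, next to 0.20 for all genes there. Between 1 and 10 CPM the median size was 0.37 for tested members and 0.45 for all genes. Below 1 CPM it was 0.42 and 0.60, so at like level members did not change more in either band.

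Promoter windows of Trpc1 and Kcnip3 are shown because both genes rose with age. That of Kcnk10, which also rose, runs 97 bases into the annotated gene and is described without its letters. The Trpc1 window also runs into its annotated gene, and its last 27 letters lie inside it. Each window is the 250 bases before the start site nearest to the annotated gene start, in build GRCm38.p6. All are on the minus strand, written in the direction of transcription. Capitals mark a match to the AP-1 motif TGANTCA. The sequences are from RefSeq, chr9:95750349-95750598 for Trpc1 and chr2:127522095-127522344 for Kcnip3.
Trpc1: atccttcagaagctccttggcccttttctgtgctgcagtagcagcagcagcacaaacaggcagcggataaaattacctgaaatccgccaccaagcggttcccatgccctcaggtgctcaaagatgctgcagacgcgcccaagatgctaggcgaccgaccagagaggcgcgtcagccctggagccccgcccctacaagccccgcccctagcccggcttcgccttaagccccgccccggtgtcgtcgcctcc
Kcnip3: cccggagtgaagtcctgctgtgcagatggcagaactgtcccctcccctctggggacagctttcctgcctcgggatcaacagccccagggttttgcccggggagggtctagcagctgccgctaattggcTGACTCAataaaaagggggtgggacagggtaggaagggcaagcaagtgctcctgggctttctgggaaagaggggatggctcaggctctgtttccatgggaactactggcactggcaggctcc

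These windows were searched on both strands for the motifs of stimulus-responsive factors, namely AP-1 (TGANTCA), CRE (TGACGTCA) and EGR (GCGNGGGCG), and no matches overlapped. Kcnip3 held 1 AP-1 match, and the windows of Trpc1 and Kcnk10 held none of the 3 motifs. Over all 32851 promoter windows of this length, 6.75% held the AP-1 motif, 1.55% CRE and 4.70% EGR. The windows also differed in composition. Trpc1 had 62.8% G and C with 17 CpG, Kcnip3 60% with 4 and Kcnk10 50% with 4, next to medians of 52.4% and 6 over all windows. A match describes the letters only.

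Kcnb2, a voltage-gated potassium channel subunit on chromosome 1 from 15287254 to 15723750 (GRCm38), stood at 0.948, 0.353 and 2.23 CPM in young replicates 1 to 3. In old replicates 1 to 3 it stood at 18.3, 17.9 and 37.4 CPM. Old replicate 3 is the highest and young replicate 2 the lowest, and the groups do not overlap. The log2 fold change was 4.34 ± 0.57 SE. Within the voltage-gated potassium channel alpha subunits, Kcnb2 took 1.52% ± 0.945 of the summed CPM in young and 22.4% ± 6.53 in old libraries (SD, n = 3). The neighbouring tested genes Eya1 and Terf1 had log2 values of 0.13 and 0.28 and were not called.

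Trpc1 encodes a subunit of cation channels that let calcium in, often in mixed channels with other TRPC proteins. It lies on chromosome 9 from 95705082 to 95750375. Its levels were 1.75, 4.70 and 1.62 CPM in young replicates 1 to 3, and 16.6, 22.9 and 25.4 CPM in old ones. The groups were well apart, with young replicate 2 the highest of the young libraries. Trpc1 was 8.02-fold higher in old mice (log2 3.00 ± 0.43 SE, adjusted p = 0.00238, edgeR). It stayed called in all 13 alternative settings, where its log2 value ran from 2.73 to 3.68 and its adjusted p reached 0.0149 at most. Its share of the summed TRP channel CPM went from 0.565% ± 0.357 to 4.53% ± 0.971 (SD, n = 3). The tested genes next to it, Pls1 at 2.27 kb and Pcolce2 at 6.99 kb, had log2 values of 0.27 and −0.78 and were not called.

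Kcnk10 encodes a two-pore-domain potassium channel, a leak channel opened by stretch, lipids and temperature, on chromosome 12 from 98429437 to 98578310. It was scarce, with 7, 4 and 15 counts in young replicates 1 to 3 and 41, 28 and 107 counts in old ones. These correspond to 0.332, 0.157 and 0.458 CPM in young and 1.73, 2.35 and 4.90 CPM in old libraries, which do not overlap. Kcnk10 was 9.28-fold higher in old mice (log2 3.21 ± 0.71 SE, adjusted p = 0.0267, edgeR). It passed the filter on low counts through the old group, since only 1 young library reached the filter's level of 0.437 CPM, so it was kept because it was high there. The call was lost when any 1 library was left out, with adjusted p from 0.0536 without young replicate 3 to 0.192 without old replicate 3. In these 6 fits the log2 value ran from 2.67 to 3.60. The span of an antisense gene overlaps that of Kcnk10, and whether their exons share reads was not tested.

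Kcnip3 encodes a calcium-binding protein known as DREAM or calsenilin, an accessory subunit of voltage-gated potassium channels that also binds DNA as a transcriptional repressor. It lies on chromosome 2 from 127456498 to 127522094. Levels were 22.6, 25.6 and 31.3 CPM in young replicates 1 to 3, and 38.6, 58.3 and 48.4 CPM in old ones. Every old library lay above every young one, with a smaller fold than for the other 3 genes. Kcnip3 was 1.82-fold higher (log2 0.87 ± 0.21 SE, adjusted p = 0.0419, edgeR) and was called in 5 of 13 alternatives. It lost its call without young replicate 1 (adjusted p = 0.101), young replicate 2 (0.110), old replicate 1 (0.0530), old replicate 2 (0.168) or old replicate 3 (0.141), and in 3 other settings.

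**Figure D2:**
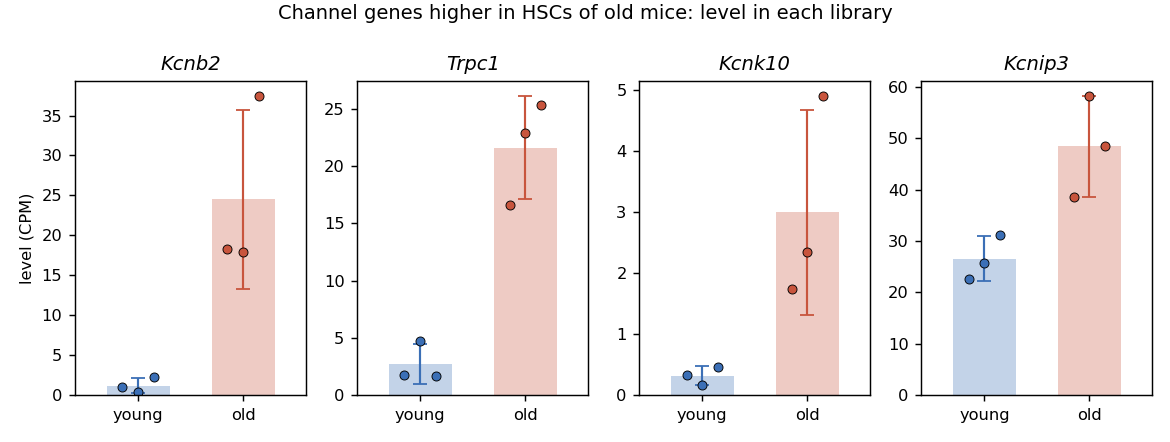
Level in CPM of 4 channel genes in each of 3 young (blue) and 3 old (red) libraries, with bars at the mean and error bars of 1 SD. No old library lies at or below a young one in any panel.

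Among the 24 voltage-gated potassium channel alpha subunits 15 were tested. Kcnb2, whose value led the choice of members, is among them, and no other was called. Their summed level was 55.5 to 94.6 CPM in young and 93.0 to 125 CPM in old libraries. The most abundant were Kcnq5, which carries a slow potassium current, Kcnb2, and Kcnh7, of the ether-a-go-go-related group. Kcnq5 ran from 10.9 to 30.8 CPM in young and from 19.3 to 25.3 CPM in old libraries (log2 0.28 ± 0.36 SE), the highest value being that of young replicate 3. Kcnh7 had a log2 value of 0.30 ± 0.32. Kcna3, the main voltage-gated potassium channel of T cells, stood at 8.20, 8.15 and 7.91 CPM in young replicates and 4.64, 1.93 and 4.49 CPM in old ones. These groups did not overlap, but the log2 value of −1.12 ± 0.42 SE missed the threshold (adjusted p = 0.192, edgeR).

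Accessory potassium channel subunits apart from Kcnip3 were not called. Kcnab2, a cytoplasmic beta subunit, ran from 24.0 to 28.1 CPM in young and from 19.0 to 27.1 CPM in old libraries (log2 −0.18 ± 0.21 SE). Kcnip4, related to Kcnip3, went from 3.98, 12.1 and 5.80 CPM to 8.22, 1.84 and 5.91 CPM, with a log2 value of −0.44 ± 0.56 that turned to 0.13 without young replicate 2.

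Among the 6 two-pore-domain channels 5 were tested. Kcnk5, an alkali- and volume-sensitive leak channel, made up most of this family, with 76.2% ± 9.60 of its summed CPM in young and 70.7% ± 3.63 in old libraries (SD, n = 3). It ran from 32.2 to 42.6 CPM in young and from 27.0 to 47.1 CPM in old mice, with a log2 value of −0.01 ± 0.22. Kcnk6 had a log2 value of 0.36 ± 0.35. Kcnk12, a member that often stays silent when expressed alone, stood at 1.37, 3.65 and 2.02 CPM in young and 0.759, 0.335 and 0.275 CPM in old replicates. Its groups did not overlap, and its log2 value of −2.32 ± 0.69 SE had an adjusted p of 0.0951 (edgeR). The edgeR exact test called it (adjusted p = 0.0343). Only 1 old library reached the filter's level, so Kcnk12 was tested because of its young values.

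The inward rectifiers, which pass potassium more easily into the cell than out of it, had the lowest median log2 fold change of the families with at least 3 tested members, −0.89, with none of 5 called. Their summed level was 26.0, 30.8 and 29.4 CPM in young replicates and 20.8, 16.0 and 18.8 CPM in old ones, and the groups did not overlap. Sums of other families did not overlap either, with old above young. These were the accessory potassium subunits (56.1 to 77.0 CPM in young, 78.3 to 92.1 in old), the Clcn genes (177 to 200, 206 to 241) and the Clic genes (244 to 293, 306 to 340). No test of these sums was made. Kcnj10, known from glia and kidney, stood at 3.98, 2.90 and 5.68 CPM in young and 1.39, 1.09 and 1.28 CPM in old replicates. Its log2 value of −1.73 ± 0.52 SE missed the threshold (adjusted p = 0.0969, edgeR), and DESeq2 (0.0327) and the edgeR exact test (0.0409) called it. Kcnj13 stood at 12.0, 9.92 and 12.7 CPM in young and 8.98, 3.69 and 5.86 CPM in old replicates (log2 −0.89 ± 0.37, adjusted p = 0.242). Its span overlaps that of Gigyf2 on the other strand, and whether their exons share reads was not tested. Spans of other named members, such as Kcnab2 and Piezo1, also overlap protein-coding genes. Kcnj2, the classical strong rectifier, had a log2 value of −0.19 ± 0.39. Macrophage markers fell in the same libraries, and their part in these values was not tested.

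Among the calcium- and sodium-activated potassium channels only Kcnn4 was abundant. Kcnn4, the intermediate-conductance channel known from red cells and lymphocytes, stood at 39.9, 44.5 and 52.3 CPM in young replicates and 36.6, 36.4 and 45.2 CPM in old ones (log2 −0.21 ± 0.18 SE, adjusted p = 0.641). The large-conductance channel Kcnma1 lay between 0.549 and 1.29 CPM in all 6 libraries and had a log2 value of −0.61 ± 0.64. Kcnn2 was not tested, and 51 of its 68 counts came from young replicate 1.

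The most abundant TRP channel genes, Trpm7 and Trpc6, were not called. Trpm7, a magnesium and calcium channel fused to a kinase, stood at 311, 294 and 308 CPM in young replicates and 274, 271 and 258 CPM in old ones. The old libraries all lay below the young ones by a small margin (log2 −0.19 ± 0.10 SE, adjusted p = 0.387, edgeR). Trpc6, opened by diacylglycerol, ran from 108 to 139 CPM in young and from 130 to 156 CPM in old libraries (log2 0.23 ± 0.13, adjusted p = 0.446). Per kilobase of exon Trpc6 stood at 28.9 CPM in old libraries against 2.69 for Trpc1. Trpv2 had a log2 value of −0.30 ± 0.26. Trpm6, the relative of Trpm7, stood at 3.93, 13.6 and 5.19 CPM in young and 14.2, 18.9 and 14.5 CPM in old replicates. Its log2 value of 1.06 ± 0.43 missed the threshold (adjusted p = 0.228, edgeR), and it was called without young replicate 2 (log2 1.79, adjusted p = 0.0185). Trpm2, a calcium channel opened by ADP-ribose and prominent in phagocytes, went from 2.13, 0.745 and 0.917 CPM to 0.379, 0.252 and 0.0458 CPM (log2 −2.45 ± 0.84, adjusted p = 0.150). No old library reached the filter's level, so Trpm2 was tested because of its young values. It was highest in young replicate 1, as was the sum of the neutrophil markers, whose part was not tested.

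Voltage-gated calcium channel subunits gave no call among 12 tested of 15. Cacnb2, an accessory beta subunit, was the most abundant at 41.0 to 56.6 CPM in young and 50.9 to 57.2 CPM in old libraries (log2 0.13 ± 0.17 SE). The pore subunits Cacna1d and Cacna1a ran from 10.9 to 15.2 CPM and from 6.18 to 9.10 CPM over all 6 libraries, with log2 values of −0.04 ± 0.26 and −0.23 ± 0.34. Cacna1b, the pore of the neuronal N-type channel, stood at 3.17, 1.18 and 2.35 CPM in young and 6.75, 5.11 and 4.12 CPM in old replicates. The groups did not overlap, and the log2 value of 1.25 ± 0.50 had an adjusted p of 0.229 (edgeR). Of 8 sodium channel subunits 6 were tested and none was called, and their sum lay between 7.92 and 15.02 CPM. Scn3b, an accessory beta subunit, stood at 4.03, 1.92 and 4.64 CPM in young and 1.43, 1.17 and 0.458 CPM in old replicates (log2 −1.79 ± 0.63, adjusted p = 0.160). The pore subunits Scn2a and Scn8a had log2 values of 0.28 ± 0.44 and −0.24 ± 0.55.

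Channels opened by ATP or by force were also not called. P2rx4 stood at 23.5 to 36.4 CPM in young and 27.7 to 42.8 CPM in old libraries (log2 0.21 ± 0.23 SE). P2rx1, the ATP receptor of platelets, had a log2 value of −0.02 ± 0.27. P2rx7, known from macrophages and inflammasome activation, had a log2 value of −0.28 ± 0.41 and its highest level, 20.4 CPM, in young replicate 3. Piezo1, the stretch-activated channel of red cells and endothelium, ran from 41.4 to 49.9 CPM in young and from 33.3 to 44.5 CPM in old libraries (log2 −0.21 ± 0.18, adjusted p = 0.627). Piezo2, the touch channel, lay below 1 CPM and was not tested.

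Chloride-handling genes included several of the most abundant members. Clic1, a small protein that occurs both soluble and in membranes, stood at 116, 107 and 131 CPM in young replicates and 168, 147 and 160 CPM in old ones. The groups did not overlap, and the log2 value was 0.42 ± 0.12 SE (adjusted p = 0.0903, edgeR). DESeq2 (adjusted p = 0.0212) and the edgeR exact test (0.0414) called it. Clic1 also had the highest level per kilobase of exon of all members, 65.5 CPM in young and 87.8 CPM in old libraries. Clic4 and Clic5 had log2 values of −0.07 ± 0.14 and 0.53 ± 0.23, and neither was called. Clcn5, an endosomal exchanger of chloride and protons, stood at 55.7, 32.5 and 39.3 CPM in young and 61.5, 59.9 and 69.0 CPM in old replicates. Its log2 value of 0.58 ± 0.20 missed the threshold (adjusted p = 0.157), and it was called without young replicate 1 (log2 0.82, adjusted p = 0.0318). The related exchangers Clcn3 and Clcn4 had log2 values of 0.28 ± 0.14 and −0.06 ± 0.20. Ano6, a calcium-activated lipid scramblase and channel needed for platelet procoagulant activity, ran from 79.9 to 123 CPM in young and from 91.6 to 106 CPM in old libraries (log2 0.03 ± 0.17). Ano10 had a log2 value of −1.01 ± 0.45. Ano7 stood at 6.63, 1.80 and 1.44 CPM in young and 1.26, 0.838 and 0.229 CPM in old replicates (log2 −2.07 ± 0.80, adjusted p = 0.206).

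**Figure D3:**
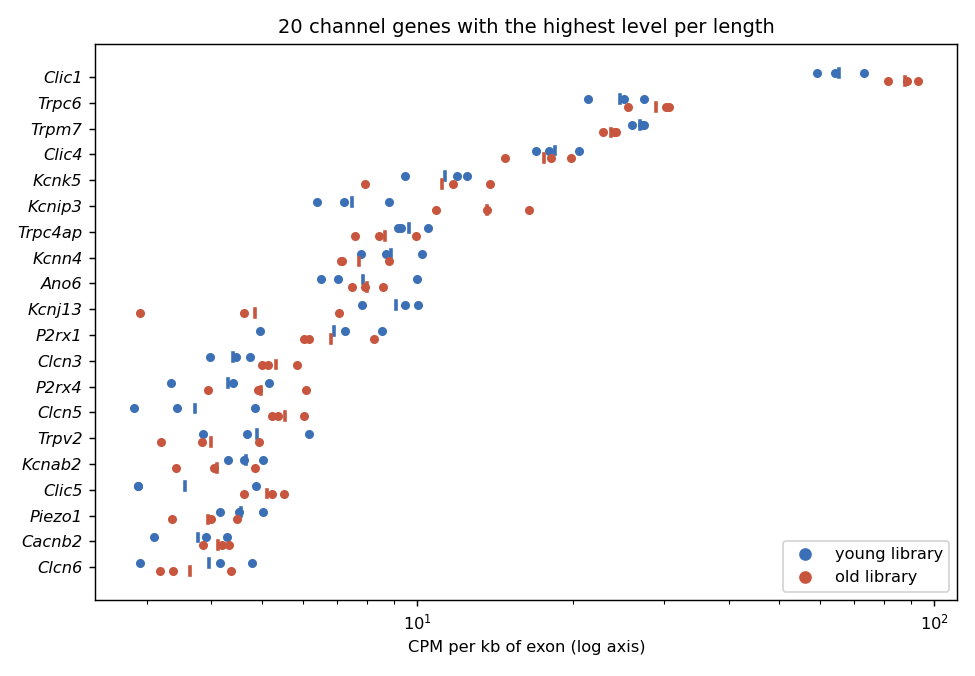
CPM per kilobase of exon, on a log axis, of the 20 members with the highest mean over the 6 libraries, with 3 young (blue) and 3 old (red) points per gene and a vertical bar at each group mean. Clic1, Trpc6, Trpm7 and Clic4 lead, and Kcnip3 is the one called gene among the 20.

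Symbols also matched 2 genes that fall in none of the families above. Trpc4ap, an adaptor of ubiquitin ligases, stood at 80.3 to 91.8 CPM in young and 66.4 to 87.2 CPM in old libraries (log2 −0.16 ± 0.15 SE). Kcnrg, a soluble regulator of potassium channels, had a log2 value of −0.63 ± 0.67 and overlaps Dleu2 on the other strand.

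The 36 members that were not tested had 15 to 119 counts in all, and 25 of them had no count in at least 1 library. Kcna6, Kcnj14 and Kcnt1 had no count in any old library, which allows up to 0.0515 CPM over the 3 libraries, against 16, 19 and 15 counts in young ones. Of these counts 15, 17 and 14 came from a single young library each. Clic6 had no count in any young library and 21 in old ones, 19 of them in old replicate 3. These genes were picked after their values were seen, and their groups overlapped.

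Pumps, calcium stores, other channels outside the symbol patterns and the calcium, calmodulin and NFAT pathway were together called about as often as all genes. Of these 109 genes, 99 were tested and 4 passed, 1 higher and 3 lower, or 4.04% next to 3.99% of all genes. The 30 pathway genes held 2 of the 4, both lower. Among 28 tested genes of calcium entry, stores and pumps 1 rose, Ryr2, a calcium release channel known from heart muscle. It went from 0.190, 0.627 and 0.947 CPM to 3.88, 3.69 and 3.39 CPM (log2 2.60 ± 0.65 SE, adjusted p = 0.0474, edgeR). It passed the filter through the old group, with 2 young libraries at the filter's level, and lost its call when any 1 library was left out (adjusted p from 0.0530 to 0.152). Stim1 and Orai2, which carry store-operated calcium entry, had log2 values of −0.13 ± 0.14 and 0.24 ± 0.20, and were chosen after the values were known. Of 7 tested sodium-potassium pump genes 1 fell, Atp1b2, a beta subunit. It stood at 14.6, 7.68 and 1.83 CPM in young replicates 1 to 3 and 0.169, 0.0838 and 0.0916 CPM in old ones (log2 −6.00 ± 0.86, adjusted p = 0.00238, edgeR). No old library reached the filter's level, so Atp1b2 was tested because of its young values, and limma-voom did not call it (adjusted p = 0.0723). It was highest in young replicate 1, as was the sum of erythroid markers, which over the 6 libraries was mostly Car2. That sum was 1246 CPM there and 881 and 832 CPM in the other young libraries. The part of the erythroid markers was not tested. None of 34 tested channels outside the symbol patterns was called, although 3 had an unadjusted p under 0.05.

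Among 30 genes of the calcium, calmodulin and NFAT pathway 2 fell. Camk1d, a calmodulin-dependent kinase, stood at 25.5, 28.4 and 35.4 CPM in young and 9.61, 8.72 and 8.65 CPM in old replicates. The groups were far apart (log2 −1.73 ± 0.23 SE, adjusted p = 0.00166, edgeR), and the call held in all 13 alternatives, with an adjusted p of 0.0131 at most. Camk2b, another kinase of this family, went from 2.94, 13.8 and 11.5 CPM to 2.02, 1.09 and 2.24 CPM (log2 −2.38 ± 0.57, adjusted p = 0.0419). It lost its call without young replicate 2 or 3 or any 1 old library, with adjusted p from 0.111 to 0.157.

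**Figure D4:**
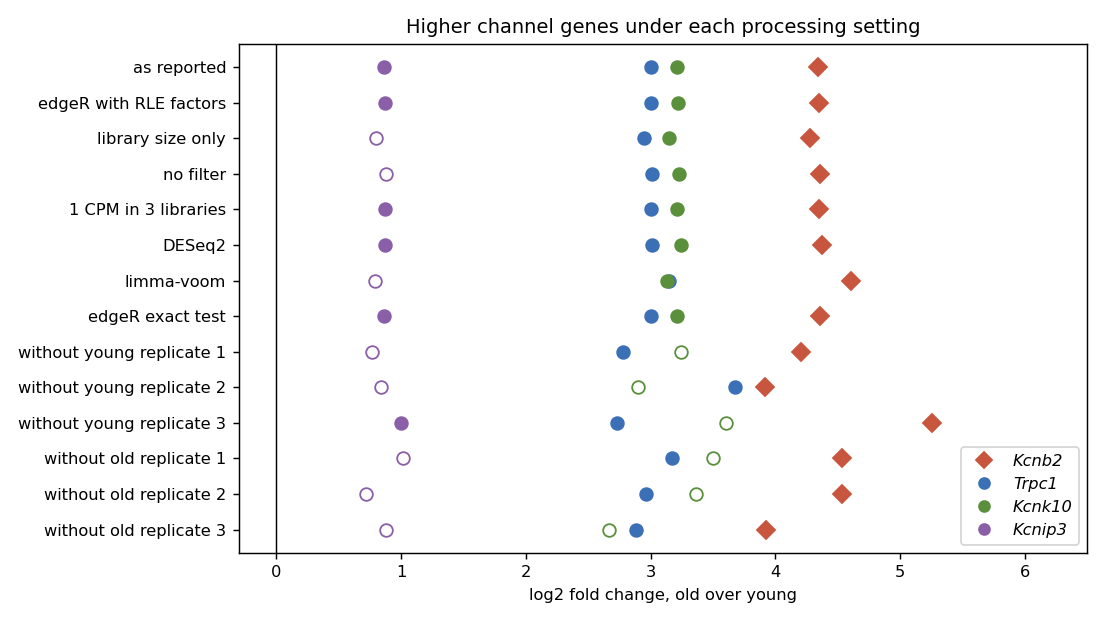
Log2 fold change, old over young, of Kcnb2 (diamonds, no test shown), Trpc1, Kcnk10 and Kcnip3 as reported and under 13 alternative settings. Filled circles passed an adjusted p of 0.05 in that setting and open circles did not, and all values lie above 0.

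Of the members in the authors' deposited table, 9 had an adjusted p under 0.05, and with the sign turned to old over young 6 of them were higher and 3 lower. All 4 genes called here, with Kcnb2 counted although its value led the choice of members, are among the 9. Clic1, Kcnj10, Ano7 and Scn3b are also among them. The authors' deposited table gives Kcnb2 a log2 value of −3.05 and Trpc1 one of −2.25 as young over old. For 10 of the 82 tested members the authors' deposited table and the fit here differed in sign.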

How the data were processed

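RNA of sorted HSCs went through a low-input kit and was read single-end, per the labels' protocols. Salmon, DESeq2, FastQC and MultiQC appear in the submitters' processing notes, with build GRCm38 and no versions or roles. The estimated counts were deposited as whole numbers, so none was rounded. The authors' second table gives, per the file headers, a base mean (a normalised signal), a log2 fold change with its standard error, a test score, and the p-value and adjusted p-value. Set against the counts, its log2 values are young over old.

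Counts were tested in R 4.3.3 with edgeR 4.0.16 (default filter with a minimum count of 10 and total of 15, TMM factors, quasi-likelihood F test, 2-sided, Benjamini-Hochberg over 14288 genes), and the fit was tested on simulated data. SEs were derived from the F statistic. Symbols (16301 identifiers), positions and exon lengths came from the GENCODE annotation of GRCm38. Alternatives used DESeq2 1.42.0 and limma 3.58.1. Replicates are biological per the series design and were numbered in accession order, which pairs none of them. No library looked like a repeat deposit, since chi-square over degrees of freedom was 21.8 to 81.0 for every pair. Old libraries carry consecutive numbers in the labels and young ones do not, so age and any step that followed those numbers cannot be told apart.

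The members, lists and tests were chosen with earlier results of these data known. Named genes are Kcnb2, every called member, the 3 most abundant members of each family and called genes of the related lists. Uncalled members with a log2 change of 1 or more at 1 CPM or more and no overlap of the groups are also named. So are symbol matches outside the families and genes next to the minimum count. Any other gene was named with its values known, or as a neighbour or overlapping gene. Some genes that the rule names are not reported here. Counting error alone underlies the floor of 3 counts.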

Additional observations from a re-analysis of the deposited data

How the results depend on the processing

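Against 4 called channel genes, all higher, DESeq2 called 7 and the edgeR exact test called 7, with 1 and 2 lower genes among them where none was lower as reported. Leaving out 1 library each gave 2 to 4 called channel genes, all higher, with 2 without old replicate 2 or old replicate 3 and none lower in any. The number of genes called over the whole table was 570, and 1146 by DESeq2, 1015 by the exact test and 245 to 473 with 1 library left out. Trpc1 was among those called in each of the 13 settings. Of the 4 related pump, store and calcium pathway genes called, 2 were called without a filter or with limma-voom, and 2 to 3 when 1 library was left out. Among uncalled members, signs turned near 0: Ano6 was −0.028 with library size alone, and limma-voom gave 0.0013 for Cacna1d, 0.021 for Kcnk5 and 0.0025 for P2rx1. With 1 library left out, log2 values ran from −0.090 to 0.24 for Ano6, −0.15 to 0.087 for Cacna1d, −0.16 to 0.083 for Clcn4, −0.16 to 0.048 for Clic4, −0.89 to 0.13 for Kcnip4, −0.38 to 0.15 for Kcnj2, −0.19 to 0.18 for Kcnk5, −0.21 to 0.16 for P2rx1 and −0.52 to 0.27 for P2rx7. The cause of these changes was not tested. No paired analysis was possible because the labels give no number shared by the groups. Depth limits the 47 members under 1 CPM most, of which 12 were tested.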

Other observations

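The base mean in the authors' deposited table lay within 2% of the mean of the deposited counts over size factors for 82 of the 118 members and outside it for 36. For Kcnb2 it was 393 against 279 from the counts, for Scn3b 128 against 49.3, and for Cacna1e 430 against 126. Kcnj13 had a log2 value of −0.89 as old over young here, and one of −0.13 as young over old in the authors' deposited table.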
